A study of Mus musculus with 66 samples.

Results

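Cortical layer identity transcription factors are the DNA-binding proteins, and partners of such proteins, that mark and set apart the neurons of different cortical layers. The 9 genes described here were taken by their symbols from a table of 30084 gene symbols. They are Cux1, Cux2, Rorb and Pou3f2, which are typical of upper layers, and Bcl11b, Fezf2, Sox5, Tle4 and Foxp2, which are typical of deep layers. All 9 passed the filter on low counts, among 16145 genes tested. The cells were neurons from wildtype E16.5 mouse embryos, grown as separate male and female cultures, with the strain not named in the labels. They were left without virus or infected with lentivirus that carried a nontargeting shRNA or an shRNA (a small hairpin RNA that causes loss of the matching mRNA) against Tbr1, Setd5, Med13l, Mbd5, Kmt2c, Kdm6b, Dnmt3a, Chd8 or Ash1l. Per the labels, the virus was removed on culture day 6, lysis followed on day 10, and the virus amount was chosen to leave about 50% of the target. Each of the 11 treatments had 3 libraries per sex, which gave 22 groups and 66 libraries. The labels name a single nontargeting shRNA and do not say whether a target had more than 1 hairpin, and they do not say how many embryos or litters the libraries came from, so p-values measure the spread between these libraries. The question addressed here is whether depletion of these regulators, and of Tbr1 in particular, changed the layer factors.

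In the cortex, excitatory neurons of deep layers are born before those of upper layers, and a small set of transcription factors that partly repress each other holds each class apart. Fezf2 directs the identity of layer 5 neurons that project below the cortex and acts in part through Bcl11b (also called Ctip2). Tbr1, a T-box factor, is needed for layer 6 corticothalamic neurons and is known to repress Fezf2 and Bcl11b there, while Sox5 controls the timing of deep-layer programmes. Tle4 is a Groucho-family corepressor and Foxp2 a forkhead factor of layer 6. Cux1 and Cux2 are homeodomain factors of layers 2 to 4, Rorb is a nuclear receptor of layer 4, and Pou3f2 (also called Brn2) is a POU factor of upper-layer neurons and their progenitors. Several of these genes are also expressed outside cortical excitatory neurons. Bcl11b and Foxp2 are abundant in striatal projection neurons, and Bcl11b is found in interneurons as well.

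The 9 genes lie on 6 chromosomes of the mm10 (GRCm38) assembly, with positions of the whole gene from the GENCODE M21 annotation. Cux1 lies at chr5:136248135-136567490 and Cux2 at chr5:121856366-122050102, both on the minus strand. Rorb lies at chr19:18930605-19111196 and Tle4 at chr19:14448150-14598051, also on the minus strand. Pou3f2 lies at chr4:22482780-22488366, Bcl11b at chr12:107910403-108003602, Fezf2 at chr14:12342094-12348189 and Sox5 at chr6:143828425-144781977, all on the minus strand. Foxp2 lies at chr6:14901349-15441977 on the plus strand. The table gives 1 count per gene, so the transcripts of long genes with several starts, such as Cux1, Sox5 and Foxp2, are not told apart.

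Because Tbr1 was one of the depleted factors, the 250 bases before each annotated start were searched for the T-box core GGTGTG on both strands. The reference promoter table (RefSeq, GRCm38.p6) held 11 starts for 8 of the 9 genes, and none for Foxp2. The core was found at 1 start each of Cux1, Cux2 and Sox5, so at 3 of 11 starts, while 16.3% of all 32851 promoters of the same length held it. The full T-box half-site AGGTGTGA, which contains the core, was at 0 of the 11 starts and in 1.12% of all promoters. The sequences that hold the core are shown because they are the stretches a reader would examine next to the Tbr1 results. They are given 5′ to 3′ on the minus strand, which is the strand of each gene, with the core in capitals. The first is chr5:136565982-136566231 before a start of Cux1, the second is chr5:122047826-122048075 before the downstream of the Cux2 starts, and the third is chr6:143947107-143947356 before a start of Sox5.
Cux1: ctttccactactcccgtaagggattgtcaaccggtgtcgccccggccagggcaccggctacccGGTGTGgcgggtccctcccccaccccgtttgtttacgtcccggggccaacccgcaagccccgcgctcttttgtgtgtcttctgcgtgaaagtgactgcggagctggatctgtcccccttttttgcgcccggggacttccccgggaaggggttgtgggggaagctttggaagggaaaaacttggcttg
Cux2: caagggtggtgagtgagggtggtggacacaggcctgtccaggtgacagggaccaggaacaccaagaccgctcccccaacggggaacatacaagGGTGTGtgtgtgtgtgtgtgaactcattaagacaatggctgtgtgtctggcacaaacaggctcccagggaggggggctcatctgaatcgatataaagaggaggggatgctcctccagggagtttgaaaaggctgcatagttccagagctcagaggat
Sox5: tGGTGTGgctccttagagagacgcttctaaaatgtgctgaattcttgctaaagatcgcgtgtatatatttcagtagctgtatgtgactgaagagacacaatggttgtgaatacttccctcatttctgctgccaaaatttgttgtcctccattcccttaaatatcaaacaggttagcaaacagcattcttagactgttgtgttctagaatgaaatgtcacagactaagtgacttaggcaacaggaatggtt
Of these starts, that of Cux1 lies in a stretch with 18 CG dinucleotides, while the other starts shown have 3 each. A match is a description of these letters and not a binding site, and its absence elsewhere says nothing about the factor.

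Total counts ranged from 13759741 to 66558546 per library. Each target was below the nontargeting mean of its sex in its own knockdown (18 of 18 group means, at 22.3% to 54.3%). A pair of male libraries went against their labels. Setd5 was at 141 CPM (read counts scaled to a common library total) and Kdm6b at 23.1 CPM in replicate 1 labelled Setd5 shRNA. In replicate 1 labelled Kdm6b shRNA, these genes were at 44.9 and 39.9 CPM. Averaged Setd5 and Kdm6b results are therefore also given without both. The labels call the cells cultured neurons and name no brain region. In the 6 nontargeting libraries the cortical excitatory neuron gene Neurod6 had 252 ± 39.7 CPM (SD, n = 6). Interneuron genes were also high, with 758 ± 117 CPM of Gad1 (SD, n = 6), and the striatal marker Ppp1r1b was at 45.9 ± 25.1 CPM (SD, n = 6). Summed markers of thalamus, midbrain and hindbrain were at most 1.99 CPM in any library and summed microglial markers at most 3.87 CPM. Summed astrocyte markers were at 323 to 488 CPM in the nontargeting libraries. Marker genes of cortical excitatory neurons, interneurons, striatal projection neurons and astrocytes were thus all present. In such bulk samples, fewer cells of a type and less RNA per cell cannot be told apart.

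All layer factors were expressed, the deep-layer ones at the top and at the bottom of the order. Levels are compared here as CPM per kilobase of exon (the union of annotated exons), as the median and range over the 6 nontargeting libraries of both sexes. Bcl11b stood highest at 15.8 (12.6 to 17.8), followed by Fezf2 at 12.7 (7.2 to 16.4) and Tle4 at 9.92 (8.27 to 12.5). Cux2 followed at 6.0 (5.37 to 7.53), Sox5 at 4.9 (3.24 to 6.89) and Cux1 at 4.38 (3.93 to 5.4). Pou3f2 was at 3.36 (2.03 to 4.0), Rorb at 2.92 (1.3 to 3.57) and Foxp2 lowest at 1.35 (0.737 to 1.86). The ranges of neighbours in this order overlapped, except that all 6 libraries had more Tle4 than any had Cux2. Tbr1 itself had a median of 9.48 (8.65 to 12.8) and lay between Tle4 and Cux2. The order of the medians was the same in the 6 libraries without virus, where Bcl11b was at 15.6 (11.1 to 20.9) and Foxp2 at 1.25 (0.609 to 2.43).

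The largest differences in several layer factors ran between replicate numbers, not between treatments. Each number of a sex comprises 11 libraries, 1 per treatment. In females, Foxp2 was at 21.5 to 43 CPM in the 11 libraries numbered 1 and at 7.27 to 15.5 CPM in the 22 numbered 2 or 3, without overlap. Rorb showed the opposite order, with 10.6 to 17.4 CPM in number 1 and 21.3 to 43.5 CPM in the others. Sox5 was also lower in number 1, at 42.3 to 62.1 against 62.7 to 120.4 CPM. So in the female libraries numbered 1 a layer 6 and striatal factor was high, and a layer 4 factor and Sox5 were low, whatever the shRNA. Pou3f2 stood apart in female number 2, at 17.9 to 23.6 against 5.82 to 16.2 CPM. Fezf2 was low in female number 1 (17.6 to 35.9 CPM) with some overlap with the others (32.8 to 60.5 CPM). In males it stood apart in number 3, at 13 to 23.4 against 24.7 to 48.7 CPM. Thus 4 of 9 factors in females and 1 of 9 in males had a number whose range did not meet that of the others. The share of all genes that stood apart in this way was not counted, so these counts have no background beside them.

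**Figure D1:**
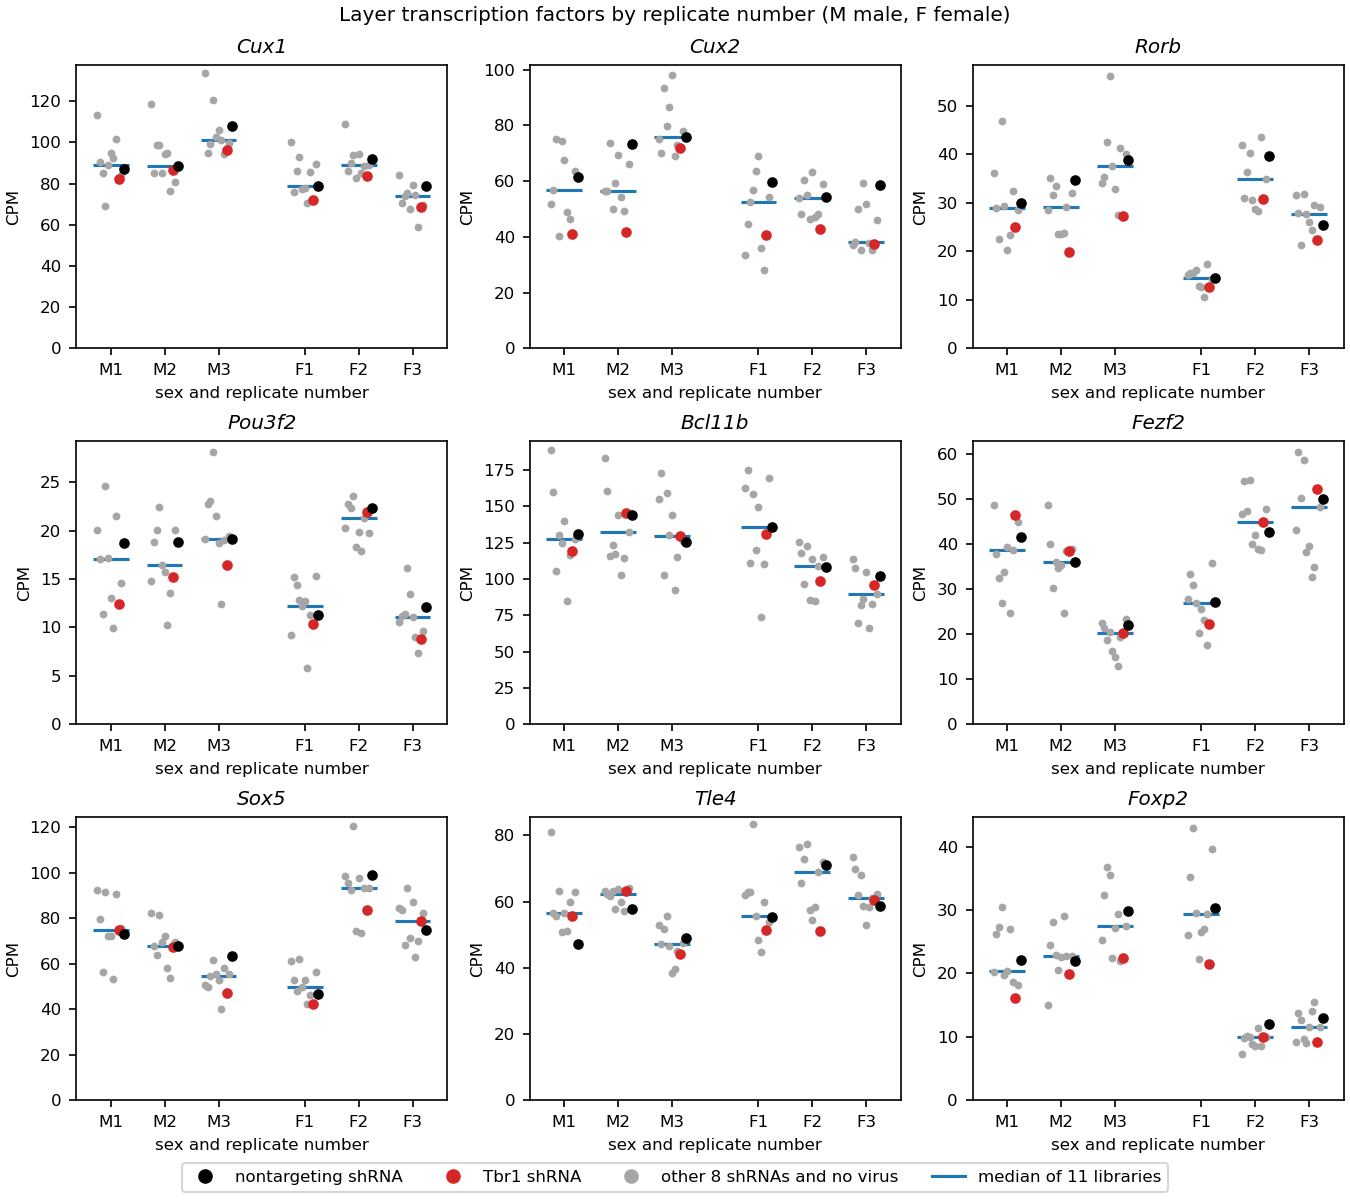
Scaled counts (CPM) of each layer factor in all 66 libraries, grouped by sex and replicate number (x axis, M male and F female), with nontargeting shRNA in black, Tbr1 shRNA in red and a blue line at the median of 11 libraries. In females, number 1 lies above the others for Foxp2 and below them for Rorb and Sox5, and male number 3 lies below the others for Fezf2.

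As a share of the variance of log2 CPM over the 33 libraries of a sex, the number accounted for 88.3% in Foxp2, 88.2% in Rorb and 80.3% in Sox5 in females. Treatment accounted for 7%, 8.60% and 16.2% there. The median share of the number over the 9 factors was 69.1% in females and 27.9% in males, beside 25.4% and 8.36% over all 16145 genes. Bcl11b was the opposite case in males, with 0.989% for the number and 88.3% for treatment. Other markers moved with the same female number. The sum of 10 striatal projection neuron markers was 319 to 459 CPM in female number 1 against 186 to 279 CPM in the others. The sum of 7 progenitor markers was 46.2 to 92.5 against 25.9 to 42.8 CPM. Their part in the levels of Foxp2, Rorb and Sox5 was not tested. The labels do not say what a replicate number stands for.

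**Figure D2:**
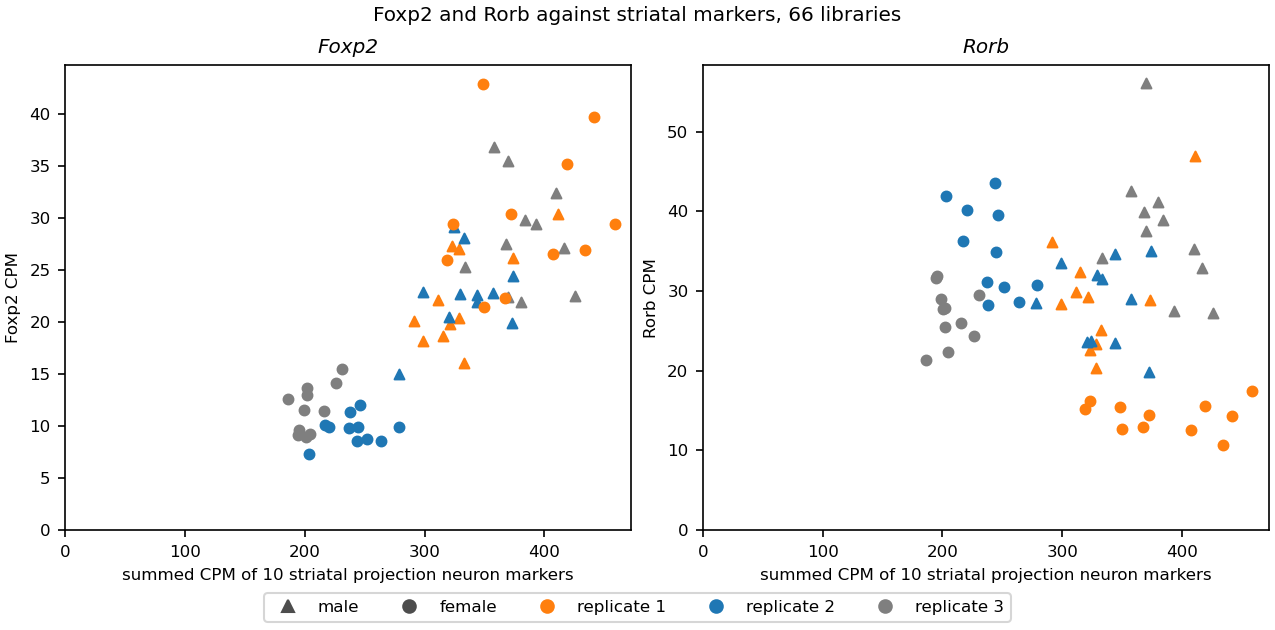
CPM of Foxp2 (left) and Rorb (right) against the summed CPM of 10 striatal markers in the 66 libraries, with males as triangles, females as circles and colour for the replicate number. Female libraries numbered 1 lie at 319 to 459 summed CPM with 21.5 to 43.0 CPM of Foxp2, and the other female libraries at 186 to 279 with 7.27 to 15.5.

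Against this spread, knockdown effects on the layer factors were small. Each shRNA was compared with the nontargeting shRNA, with the male and the female effect averaged, by edgeR's quasi-likelihood test over all 66 libraries. A factor is called changed when its p-value, adjusted by Benjamini-Hochberg over the 16145 genes of the comparison, is under 0.05. Of 81 pairs of factor and knockdown, 1 was called, against 6.99% of all gene and knockdown pairs. In 11 pairs the unadjusted p was under 0.05, as it was for 1111 (Kmt2c) to 5746 (Med13l) of 16145 genes per knockdown. The 81 log2 fold changes ran from −0.64 to 0.31, with a median of −0.08 and a median SE of 0.209. The one call was a fall of Bcl11b after Med13l shRNA. Because the spread follows the replicate number, a second fit added the number within each sex as a block. The numbers pair the libraries in both sexes for 6 knockdowns (Chd8, Dnmt3a, Kmt2c, Mbd5, Setd5 and Tbr1), and only blocked values of paired comparisons are given beside the results. In these 6, the block raised the count from 0 to 10 of 54 pairs, 9 lower and 1 higher, against 12.2% of all genes there and 5.29% without the block. Of those 10 calls, 5 held when each of the 12 libraries was left out in turn. The median SE over the 81 pairs fell from 0.209 to 0.0860 on the log2 scale with the block.

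**Figure D3:**
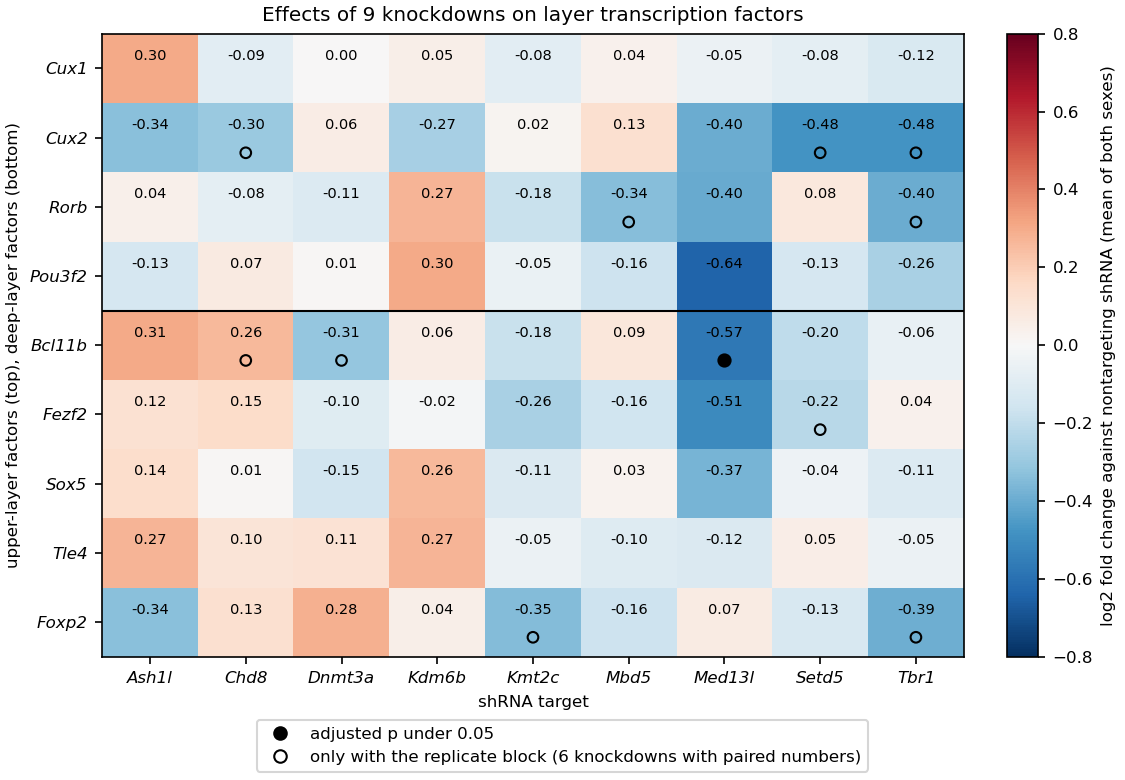
Log2 fold change of each layer factor (y axis) after each shRNA (x axis) against the nontargeting shRNA, as the mean of both sexes from the fit without a block, with red for higher and blue for lower. The filled circle marks the one call without the block (Bcl11b after Med13l shRNA) and the 10 open circles mark calls made only with the replicate block in the 6 knockdowns with paired numbers.

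Among upper-layer factors, the homeodomain factor Cux2 fell with the block after 3 of the 6 knockdowns with paired numbers (Chd8, Setd5 and Tbr1), and was not called without it. Its lowest averaged values followed Tbr1 shRNA (−0.48) and Setd5 shRNA (−0.48), and the highest followed Mbd5 shRNA (0.13). Nontargeting cultures had Cux2 at 61.5, 73.2 and 75.9 CPM in males and 59.6, 54.1 and 58.5 CPM in females, in the order of replicates 1 to 3. Without virus it was at 63.6, 66.3 and 78 CPM and 54.4, 59 and 46.1 CPM, so female replicate 3 without virus also lay below every nontargeting female. All knockdowns are compared with the same nontargeting libraries, so their comparisons are not independent. After Setd5 shRNA Cux2 was at 46.2, 49.3 and 72.8 CPM and 28, 48.1 and 35.4 CPM. All 3 female Setd5 libraries lay below every nontargeting female, while the male groups overlapped. The log2 fold change was −0.48 (SE 0.157, 95% interval −0.79 to −0.16, edgeR adjusted p = 0.0656). With the block it was −0.50 (SE 0.102, edgeR adjusted p = 0.000375), a call that held in all 12 fits with 1 library left out (adjusted p 7.7e-05 to 0.00615). Setd5 shRNA called 5.3% of all genes without the block and 16.2% with it. Without both libraries that go against their labels, the change was −0.41 (edgeR adjusted p = 0.128), and −0.48 with the block (0.000849). Of 11 interneuron markers, 2 were called lower after Setd5 shRNA (Slc32a1 and Sst). The 11 summed to 1987 to 2328 CPM in males, against 2240 to 2468 CPM in nontargeting males. In females they summed to 1452 to 2048 CPM, against 1983 to 2354 CPM. Their part in the Cux2 values was not tested.

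After Chd8 shRNA, Cux2 was at 56.8, 56.3 and 70.2 CPM in males and 44.7, 48.3 and 38.2 CPM in females. Every female library lay below the nontargeting females and the male ranges overlapped. The change was −0.30 (SE 0.157, 95% interval −0.61 to 0.02, edgeR adjusted p = 0.183). With the block it fell by 0.31 on the log2 scale (edgeR adjusted p = 0.0139). That call was lost without nontargeting male replicate 2 or nontargeting female replicate 3 (adjusted p up to 0.0636). Chd8 shRNA changed many genes, 22.3% of all tested without the block and 36.9% with it. Among markers of cortical excitatory neurons 2 of 7 were called lower there (Camk2a and Slc17a7). The 7 summed to 701 to 945 CPM in males, against 796 to 902 CPM in nontargeting males. In females they summed to 753 to 940 CPM, against 861 to 1031 CPM. Of 11 interneuron markers, 2 were called lower (Gad2 and Slc32a1). Of 8 astrocyte markers 2 were called lower (Gfap and Slc1a2), as was 1 of 10 striatal markers (Drd1). Of 6 neuron markers, 2 were called higher and 2 lower (among Map2, Stmn2, Syt1 and Tubb3). The part of these markers was not tested.

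In females the numbers also pair the Ash1l and Med13l libraries. Cux2 was at 35.8, 47.1 and 37.9 CPM in Med13l females and 33.4, 53.9 and 36.9 CPM in Ash1l females, all below every nontargeting female. In males the values were 49.1, 54.5 and 69.1 CPM and 51.7, 56.5 and 75 CPM, which overlapped the controls. The averaged changes were −0.40 and −0.34 (edgeR adjusted p = 0.0568 and 0.238). In females the blocked change of Cux2 was −0.52 after Med13l shRNA (edgeR adjusted p = 0.00488). It was −0.49 after Ash1l shRNA (edgeR adjusted p = 0.0351). After Ash1l shRNA 5 of 11 interneuron markers were called lower (Dlx6os1, Gad1, Gad2, Lhx6 and Slc32a1). The 11 summed to 1052 to 1539 CPM in males, against 2240 to 2468 CPM in nontargeting males. In females they summed to 1088 to 1426 CPM, against 1983 to 2354 CPM. Their part in this and the other layer factor values after Ash1l shRNA was not tested. Of all genes, 27.9% and 4.43% were called in these blocked female comparisons. The Med13l call was lost without Med13l female replicate 1 (adjusted p = 0.0632), and the Ash1l call without replicate 1 or 3 of either group (up to 0.366).

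**Figure D4:**
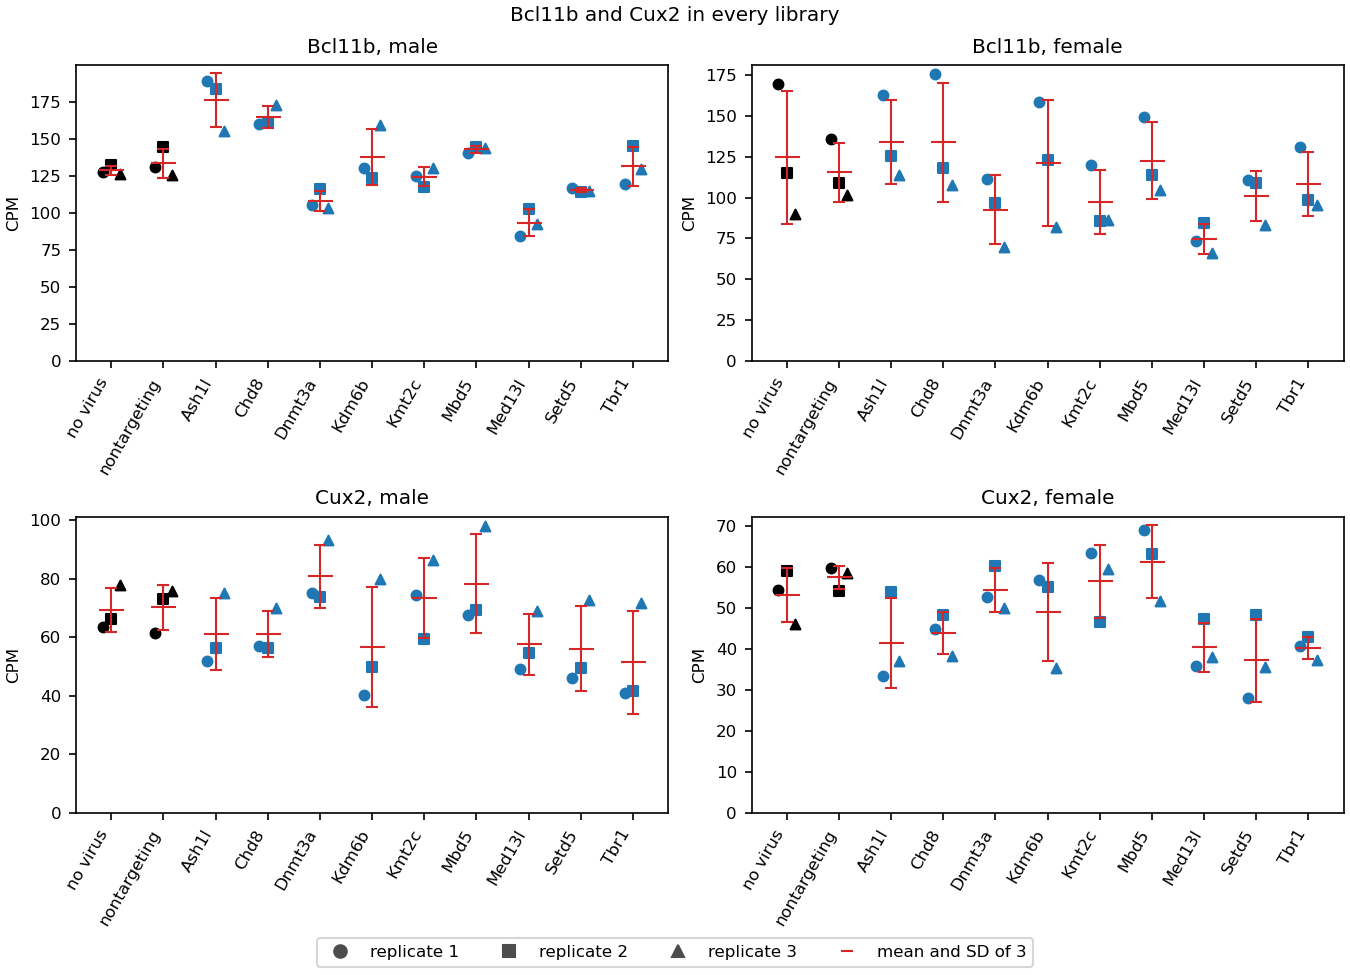
CPM of Bcl11b (top) and Cux2 (bottom) in every male (left) and female (right) library by treatment, with symbols for the replicate number and red bars for the mean and SD of 3 libraries. The Bcl11b values after Med13l shRNA lie below every nontargeting library of the same sex. Those of Cux2 after Tbr1, Setd5, Chd8, Med13l and Ash1l shRNA do so in females, all against the same 3 nontargeting libraries.

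Cux1, the paralog of Cux2, moved little. Its averaged changes ran from −0.12 after Tbr1 shRNA to 0.30 after Ash1l shRNA. With the nontargeting shRNA it was at 86.9, 88.5 and 108 CPM in males and 78.6, 91.9 and 78.8 CPM in females. After Ash1l shRNA it was at 113, 119 and 134 CPM and 100.2, 109 and 84.3 CPM. The 3 male Ash1l libraries lay above the nontargeting males and the females overlapped. The averaged change of 0.30 (SE 0.105, 95% interval 0.09 to 0.51) did not pass by edgeR (adjusted p = 0.0762), in a comparison that called 6.16% of all genes. Set against the libraries without virus it was 0.36 and passed (edgeR adjusted p = 0.0265).

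Rorb, the layer 4 receptor, had averaged changes between −0.40 after Med13l shRNA and 0.27 after Kdm6b shRNA (0.26 without both libraries that go against their labels), and none was called. With the nontargeting shRNA it was at 29.9, 34.7 and 38.9 CPM in males and 14.4, 39.5 and 25.4 CPM in females, so the low female number 1 is visible within the controls. After Mbd5 shRNA it was at 20.3, 23.5 and 32.8 CPM and 12.5, 28.7 and 26 CPM. Rorb was lower in 5 of the 6 pairs of libraries with the same sex and number, and the groups overlapped in both sexes. The change was −0.34 (SE 0.277, 95% interval −0.89 to 0.22, edgeR adjusted p = 1.0), and −0.33 with the block (edgeR adjusted p = 0.032). The blocked call was lost in 7 of 12 fits with 1 library left out (adjusted p up to 0.135), namely without nontargeting male replicate 2, nontargeting female replicate 1 or 2, or Mbd5 replicate 1 or 2 of either sex. Mbd5 shRNA called 0.663% of all genes without and 3.32% with the block. Pou3f2 had its lowest value after Med13l shRNA, with 9.96, 10.2 and 12.4 CPM in males and 5.82, 17.9 and 8.97 CPM in females. With the nontargeting shRNA it was at 18.7, 18.9 and 19.1 CPM and 11.3, 22.3 and 12.1 CPM. The male groups did not overlap and the female groups did. The averaged change was −0.64 (SE 0.252, 95% interval −1.15 to −0.14, edgeR adjusted p = 0.0558), just short of the threshold, and DESeq2 placed it just past (adjusted p = 0.0455). In females with the block it was −0.51 (edgeR adjusted p = 0.0292), a call lost without nontargeting female replicate 2 or 3 or Med13l female replicate 1 (up to 0.327). The averaged change passed without the block when Med13l female replicate 2 (0.00599), nontargeting female replicate 1 (0.0381) or nontargeting female replicate 3 (0.0488) was left out. Its highest averaged value followed Kdm6b shRNA (0.30, edgeR adjusted p = 0.715), with 24.6, 22.5 and 28.1 CPM in males, above the controls, and 12.8, 23.6 and 16.2 CPM in females, overlapping them. Without both libraries that go against their labels the Kdm6b value was 0.31.

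Among deep-layer factors, Bcl11b gave the one call of the fit without a block. In nontargeting cultures it was at 131, 144 and 125 CPM in males and 136, 109 and 102 CPM in females. After Med13l shRNA, against a subunit of the Mediator kinase module, it was at 84.7, 103 and 92.7 CPM and 73.7, 84.5 and 66.2 CPM. All 6 Med13l libraries lay below every nontargeting library of their sex. Bcl11b fell by 32.7%, a log2 fold change of −0.57 (SE 0.136, 95% interval −0.84 to −0.30, edgeR adjusted p = 0.00133). The call held in all 12 fits with 1 library left out (adjusted p 0.00128 to 0.0088). Med13l shRNA called 24.1% of all genes, 12.3% lower, so 1 of 9 layer factors was not more than that background. In females, within the fit of all 66 libraries, the change was −0.62 (edgeR adjusted p = 0.0271) and passed, among 10.2% of all genes. This female call was lost without replicate 1 or 2 of the nontargeting females or replicate 1 or 3 of the Med13l females (up to 0.144). With the block the female change was −0.61 (edgeR adjusted p = 3.6e-05), in a comparison that called 27.9% of all genes. That blocked call held whichever of the 6 libraries was left out (adjusted p up to 0.00513). In males without the block the change was −0.52 (edgeR adjusted p = 0.0881) and did not pass, in a comparison that called 8.06% of all genes. The male change did pass when males were fitted alone (edgeR adjusted p = 0.000412) or with only the libraries compared (edgeR adjusted p = 0.00272). The female change was not called in either kind of fit. The difference between the sexes was 0.11 (SE 0.271, 95% interval −0.44 to 0.65, males minus females, edgeR adjusted p = 1.0). Interneuron markers were also lower after Med13l shRNA, with 4 of 11 called lower (Adarb2, Gad1, Lhx6 and Slc32a1). The sum of the 11 was 1396 to 1929 CPM in males, against 2240 to 2468 CPM in nontargeting males. In females it was 1255 to 2119 CPM, against 1983 to 2354 CPM. None of the 10 striatal markers was called after Med13l shRNA. Of 8 astrocyte markers 2 were called lower (Aqp4 and Gja1, median of the 8 −0.58), as were Pdgfra, Syt1 and the progenitor genes Mki67 and Top2a, while the cortical excitatory gene Neurod6 was called higher. The part of these markers in the fall of Bcl11b was not tested.

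Other changes of Bcl11b went both ways. After Dnmt3a shRNA, against a DNA methyltransferase, it was at 105, 116 and 103 CPM in males and 111, 96.5 and 69.6 CPM in females. It was lower than the control of the same number in 6 of 6 pairs, without overlap of the groups in males. The change was −0.31 (SE 0.135, 95% interval −0.58 to −0.04, edgeR adjusted p = 0.395), and −0.32 with the block (SE 0.0779, edgeR adjusted p = 0.0058). The blocked call held in all 12 fits with 1 library left out, among 6.97% of all genes called (1.4% without the block). Of other markers after Dnmt3a shRNA, 1 of 11 interneuron genes was called lower (Gad2) and 1 of 8 astrocyte genes higher (Gfap), and no striatal marker was called. After Chd8 shRNA, against a chromatin remodeler, Bcl11b was at 160.1, 160.4 and 173 CPM and 175, 118 and 108 CPM, higher in 6 of 6 pairs. The change was 0.26 (SE 0.135, 95% interval −0.01 to 0.53, edgeR adjusted p = 0.181). With the block it rose by 0.25 (SE 0.0776, edgeR adjusted p = 0.00933), and that call held in all 12 fits (adjusted p 0.00563 to 0.0451). After Chd8 shRNA 1 of 10 striatal markers (Drd1) and 2 of 11 interneuron markers (Gad2 and Slc32a1) were called lower. The part of the markers called there in the rise of Bcl11b was not tested. After Ash1l shRNA the values were 189, 184 and 155 CPM in males and 163, 125 and 114 CPM in females. The males lay above their controls and the females overlapped them, and the averaged change of 0.31 did not pass (edgeR adjusted p = 0.203). Bcl11b after Kmt2c, Mbd5, Kdm6b and Tbr1 shRNA had changes between −0.18 and 0.09, with no call, and after Setd5 shRNA the value was −0.20 (edgeR adjusted p = 0.467; −0.21 and 0.489 without both libraries that go against their labels).

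Fezf2, upstream of Bcl11b in layer 5 neurons, was lowest after Med13l shRNA. In nontargeting cultures it was at 41.5, 36.1 and 21.9 CPM in males and 27.2, 42.7 and 50 CPM in females. After Med13l shRNA it was at 24.7, 24.7 and 13 CPM and 23.2, 38.9 and 32.8 CPM. The groups overlapped in both sexes. The change was −0.51 (SE 0.28, 95% interval −1.07 to 0.05, edgeR adjusted p = 0.189), and in females with the block −0.33 (edgeR adjusted p = 0.0392). This blocked female call was lost without replicate 1 or 3 of either group (up to 0.249). After Setd5 shRNA Fezf2 was at 38.7, 38.4 and 19.3 CPM in males and 17.6, 38.6 and 34.9 CPM in females. The change was −0.22 (SE 0.279, 95% interval −0.79 to 0.34, edgeR adjusted p = 0.747), and −0.25 with the block (edgeR adjusted p = 0.0424). That blocked call was lost in 9 of 12 fits with 1 library left out (up to 0.169), and held only without nontargeting male or female replicate 2 or Setd5 female replicate 2. Without both libraries that go against their labels it was −0.24 (edgeR adjusted p = 0.0391).

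Sox5 and Tle4 gave no call in the fit of all 66 libraries without the block, and none with it in the 6 knockdowns with paired numbers. Sox5 ran from −0.37 after Med13l shRNA to 0.26 after Kdm6b shRNA (SE 0.209 and 0.209). Without both libraries that go against their labels the Kdm6b value was 0.20. Sox5 was at 53, 57.9 and 40 CPM in Med13l males and 73.2, 67.8 and 63.2 CPM in nontargeting males, which did not overlap, and a fit of only these libraries called it lower in males (−0.43, edgeR adjusted p = 0.0327). In females it was at 42.3, 73.2 and 62.7 CPM against 46.5, 99 and 75 CPM, which did. Tle4 had the narrowest range of averaged changes among the deep-layer factors, from −0.12 after Med13l shRNA to 0.27 after Ash1l shRNA. Treatment nevertheless accounted for 65.3% of its variance of log2 CPM in females, and the number for 14%. In males these shares were 24.2% and 55%. After Ash1l shRNA Tle4 was at 80.9, 63.1 and 52.9 CPM in males and 62, 76.6 and 73.4 CPM in females. With the nontargeting shRNA it was at 47.2, 57.7 and 49.1 CPM and 55.4, 71.1 and 58.6 CPM. The ranges overlapped in both sexes (edgeR adjusted p = 0.161). Kdm6b shRNA called 0.966% of all genes. Its averaged value for Tle4 was 0.27 (edgeR adjusted p = 0.30), and 0.26 without both doubted libraries.

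Foxp2 had the widest error of the 9 (median SE 0.368) and the largest share of female variance by replicate number. After Kmt2c shRNA, against a histone methyltransferase, it was at 19.8, 20.5 and 22.4 CPM in males and 22.3, 8.78 and 8.94 CPM in females. With the nontargeting shRNA it was at 22.1, 22 and 29.8 CPM and 30.4, 12 and 13 CPM, so each Kmt2c library was below the control of its number while the groups overlapped. The change was −0.35 (SE 0.37, 95% interval −1.09 to 0.40, edgeR adjusted p = 1.0). With the block it was −0.35 and at the threshold (edgeR adjusted p = 0.0498). The blocked call was lost in 10 of 12 fits with 1 library left out (up to 0.19), and held only without nontargeting female replicate 1 or Kmt2c female replicate 2. Kmt2c shRNA called 0.694% of all genes without and 2.97% with the block. The astrocyte gene Slc1a2 was called lower there (1 of 8, median −0.82). Summed astrocyte markers were at 246 to 301 CPM in males, against 323 to 390 CPM in nontargeting males. In females they were at 236 to 269 CPM, against 326 to 488 CPM. Their part in the Foxp2 values was not tested. After Ash1l shRNA in females Foxp2 was at 26, 7.27 and 9.11 CPM, and the blocked change was −0.48 (edgeR adjusted p = 0.0482). That call was lost whichever of the 6 libraries was left out.

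Tbr1 depletion was the comparison closest to the layer programme, since Tbr1 is itself a layer 6 factor. Tbr1 was at 18.3, 15.3 and 23.4 CPM in males and 15.4, 34.3 and 15.8 CPM in females after its shRNA, against 51.8, 52.2 and 54.8 CPM and 47.4, 70.2 and 48 CPM with the nontargeting shRNA. Every depleted library was below its controls, and the averaged change was −1.41 (SE 0.169, 95% interval −1.75 to −1.07, edgeR adjusted p = 4.4e-07). None of the 9 layer factors was called without the block, in a comparison that called 1.33% of all genes by edgeR. Cux2 alone of the 9 had an unadjusted p under 0.05 there, as did 1598 of all 16145 genes. With the block 3 of 9 were called lower, Cux2, Rorb and Foxp2, and none higher, against 6.57% of all genes called (4.45% lower). These are an upper-layer homeodomain factor, the layer 4 receptor and a layer 6 forkhead factor.

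Cux2 was at 41, 41.7 and 71.8 CPM in Tbr1 males and 40.7, 42.7 and 37.3 CPM in Tbr1 females, beside the control values above. Replicates 1 and 2 were clearly lower in males and replicate 3 was near its control, while all 3 females lay below every nontargeting female. The change was −0.48 (SE 0.157, 95% interval −0.80 to −0.16) by edgeR without the block (adjusted p = 0.136). With the block it was −0.51 (SE 0.102, 95% interval −0.71 to −0.30), with an edgeR adjusted p of 0.000663 (0.000312 to 0.00557 with 1 library left out). Without Tbr1 male replicate 3 the change without the block was −0.64 and passed (edgeR adjusted p = 0.0266). Rorb was at 25.1, 19.9 and 27.3 CPM and 12.6, 30.7 and 22.4 CPM. It lay below the controls in males and overlapped them in females, yet each library was lower than the control of its number. The change was −0.40 (SE 0.277, 95% interval −0.96 to 0.16, edgeR adjusted p = 0.754). With the block it was −0.39 (SE 0.0943, 95% interval −0.58 to −0.20), with an edgeR adjusted p of 0.00567 (0.0034 to 0.0346 with 1 library left out). Foxp2 was at 16.1, 19.9 and 22.5 CPM and 21.5, 9.89 and 9.23 CPM, overlapping the controls in both sexes but lower in 6 of 6 pairs (−0.50 to −0.14, log2). The change was −0.39 (SE 0.37, 95% interval −1.13 to 0.35, edgeR adjusted p = 0.887) and with the block −0.38 (SE 0.105, 95% interval −0.59 to −0.17, edgeR adjusted p = 0.0163). The blocked Foxp2 call was lost without nontargeting female replicate 2, Tbr1 male replicate 1 or Tbr1 female replicate 1 (up to 0.0957).

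**Figure D5:**
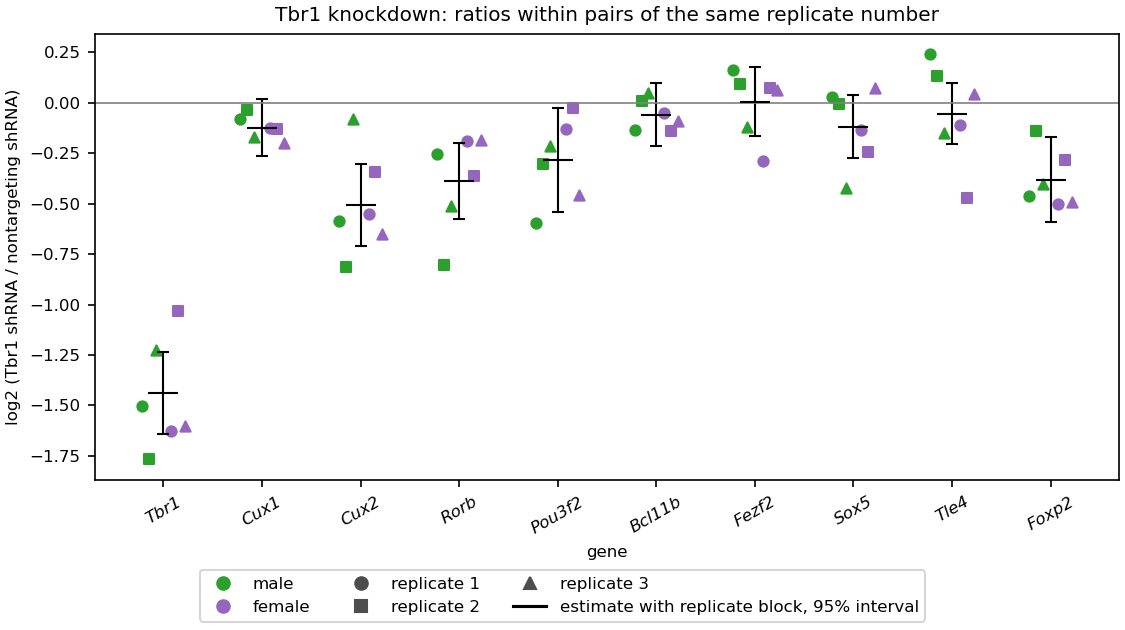
Log2 ratio of CPM, Tbr1 shRNA over nontargeting shRNA, in pairs of libraries that share sex and replicate number, for Tbr1 and the 9 layer factors, with males green, females purple and black bars for the blocked estimate with its 95% interval. All 6 points lie below 0 for Tbr1, Cux1, Cux2, Rorb, Pou3f2 and Foxp2, and on both sides of 0 for Bcl11b, Fezf2, Sox5 and Tle4.

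Fezf2 and Bcl11b, which Tbr1 is known to repress in cortex, were not called higher. Fezf2 was at 46.4, 38.5 and 20.2 CPM in males and 22.3, 45 and 52.2 CPM in females after Tbr1 shRNA, around its controls. Its change was 0.04 (SE 0.278, 95% interval −0.52 to 0.59, edgeR adjusted p = 0.988), and the blocked interval was −0.17 to 0.18. Bcl11b was at 119, 145 and 129 CPM and 131, 98.6 and 95.6 CPM. Its change was −0.06 (SE 0.135, 95% interval −0.33 to 0.22, edgeR adjusted p = 0.974), with a blocked interval of −0.21 to 0.10. These intervals bound the change at the depletion reached here, where Tbr1 mRNA fell by 62.3%, and say nothing of a complete loss. Sox5 was at 74.6, 67.4 and 47.2 CPM in males and 42.3, 83.5 and 78.7 CPM in females, and Tle4 at 55.7, 63.3 and 44.3 CPM and 51.4, 51.2 and 60.5 CPM, each overlapping its controls. For Sox5 the change was −0.11 (blocked interval −0.28 to 0.04) and for Tle4 −0.05 (−0.20 to 0.10). Pou3f2 was at 12.4, 15.3 and 16.4 CPM in Tbr1 males, below their controls, and 10.4, 22 and 8.78 CPM in Tbr1 females, which overlapped. Cux1 was at 82.2, 86.4 and 96.1 CPM and 72.1, 83.9 and 68.7 CPM and overlapped in both sexes. Cux1 (−0.12) and Pou3f2 (−0.26) were lower in 6 of 6 pairs and were not called, with blocked intervals of −0.27 to 0.02 and −0.54 to −0.03. The sum of 8 astrocyte markers after Tbr1 shRNA was 197 to 279 CPM in males, against 323 to 390 CPM in nontargeting males. In females this sum was 207 to 248 CPM, against 326 to 488 CPM. It is made up mostly of the glutamate transporter gene Slc1a2 (261 CPM in nontargeting libraries), the only one of the 8 called, which was lower, while the median change of the 8 was 0.19. No interneuron, striatal or cortical excitatory marker was called after Tbr1 shRNA. The part of these marker values in those of the layer factors was not tested. In the other 5 knockdowns with paired numbers, Tbr1 itself was called only after Kmt2c shRNA and only with the block (−0.44, edgeR adjusted p = 0.00367; −0.43 and 0.394 without it).

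No layer factor was called for a knockdown effect that differed by sex. Of 81 interactions, 0 passed by edgeR, where the pooled share of all genes was 0.00206%. An unadjusted p under 0.05 was found for 0 of the 81, and for 66 (Mbd5) to 439 (Setd5) of 16145 genes per knockdown. The differences ran from −0.47 to 0.44 with a median SE of 0.418, which is as wide as these differences. With the block 0 passed and 5 had an unadjusted p under 0.05, as did 172 (Dnmt3a) to 937 (Setd5) of 16145 genes per knockdown. In males 0 of 81 pairs were called without the block, against 2.28% of all genes, and in females 1 of 81, against 2.68%. In males 6 of the 81 had an unadjusted p under 0.05, as did 397 (Kmt2c) to 3503 (Chd8) of 16145 genes per knockdown. With the block, 2 of 54 pairs were called in the 6 male comparisons with paired numbers, Bcl11b higher after Chd8 shRNA (0.30, edgeR adjusted p = 0.0398) and Rorb lower after Tbr1 shRNA (−0.52, edgeR adjusted p = 0.0218). These comparisons called 22.1% and 1.75% of all genes. In the 8 female comparisons with paired numbers, 9 of 72 were called, all lower. Beyond those after Ash1l and Med13l shRNA given above, they were Cux2 after Chd8 shRNA (−0.40, edgeR adjusted p = 0.0368) and Cux2 and Fezf2 after Setd5 shRNA (−0.65 and −0.43, edgeR adjusted p = 0.00199 and 0.0159). All genes were called at 21.1% and 13% in the latter. The Cux2 call after Setd5 shRNA was lost without Setd5 female replicate 1, and Fezf2 without that library or nontargeting female replicate 1 or 3. The Chd8 call of Cux2 was lost without any of its 6 libraries except nontargeting female replicate 2. The male calls were lost without replicate 1 or 3 (Bcl11b after Chd8 shRNA) or replicate 2 or 3 (Rorb after Tbr1 shRNA) of either group.

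Infection itself gave no call among the layer factors. For nontargeting shRNA against no virus, 0 of 9 factors were called by edgeR in the averaged comparison, in males or in females, as was 0% of all genes. The unadjusted p of the averaged comparison was under 0.05 for 0 of 9 factors and for 113 of 16145 genes. The averaged changes ran from −0.12 (Fezf2, 95% interval −0.68 to 0.44) to 0.06 (Cux2, −0.25 to 0.38).

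Among other layer genes, most calls without the block followed Med13l and Chd8 shRNA. Apart from the 9 factors, 11 upper-layer genes, 15 deep-layer genes (14 for Tbr1 shRNA, without the target) and 11 genes of Cajal-Retzius and subplate neurons were measured. Med13l shRNA called 2 of 11, 4 of 15 and 4 of 11 of them, all lower, beside 12.3% of all genes lower. Chd8 shRNA called 1 higher and 3 lower, 2 higher and 1 lower, and 1 higher and 2 lower. These 2 knockdowns also called the most genes of the 9, with 24.1% and 22.3% of all tested. Ash1l shRNA called 1 deep-layer gene higher, and Setd5 shRNA 1 Cajal-Retzius and subplate gene lower. Tbr1, Dnmt3a, Kdm6b, Kmt2c and Mbd5 shRNA called none by edgeR without the block. With it, Tbr1 shRNA called 2 upper-layer, 1 deep-layer and 1 Cajal-Retzius and subplate gene lower, beside 4.45% of all genes lower. The other knockdowns with paired numbers follow, with the share of all genes called. Chd8 shRNA called 3 higher and 4 lower, 6 higher and 1 lower, and 1 higher and 4 lower (36.9%). Setd5 shRNA called 1 upper-layer gene higher, and 1 deep-layer gene and 2 of the third list lower (16.2%). Dnmt3a shRNA called 3 upper-layer genes lower (6.97%). Kmt2c shRNA called 1 deep-layer gene and 1 of the third list lower (2.97%). The median log2 fold changes after Tbr1 shRNA were −0.21, −0.18 and −0.38 for the 3 lists, beside −0.0015 over all genes. They were −0.20, −0.16 and −0.45 after Med13l shRNA, and −0.13, 0.19 and −0.33 after Ash1l shRNA.

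Up to 3 called genes per knockdown, those with the smallest adjusted p, serve as examples. Reln, the secreted signal of Cajal-Retzius cells that interneurons also make, changed from 1105 ± 286 to 531 ± 127 CPM in males after Med13l shRNA (SD, n = 3 each) and from 922 ± 174 to 399 ± 202 CPM in females (log2 −1.13, edgeR adjusted p = 6.0e-05). Nfia, a nuclear factor I protein, changed by −1.05 (edgeR adjusted p = 8.1e-05) and the subplate gene Cplx3 by −1.70 (edgeR adjusted p = 0.00146), with Cplx3 near 1.94 CPM in nontargeting males. After Chd8 shRNA the netrin receptor gene Unc5d changed from 112 ± 13.2 to 50.6 ± 1.5 CPM in males (log2 −1.12, edgeR adjusted p = 6.3e-07), the nuclear factor I gene Nfib by −0.67 and the LIM-only gene Lmo4 by −0.59. Nfib changed the other way after Ash1l shRNA, by 0.38 (edgeR adjusted p = 0.0452), a call lost without both libraries that go against their labels (0.0519), against no virus (0.0561) and with no filter on low counts (0.0937). Ndnf, a marker of Cajal-Retzius cells and of an interneuron class, changed by −1.07 after Setd5 shRNA (edgeR adjusted p = 0.00352), and by −1.49 without both libraries that go against their labels (edgeR adjusted p = 7.9e-06). Ndnf was not called when its 12 Setd5 and nontargeting libraries were fitted alone (−1.05, edgeR adjusted p = 0.152). Interneuron markers were called lower in 2 of 11 after Setd5 shRNA and 5 of 11 after Ash1l shRNA, and their part in these values was not tested.

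The gene most similar to a layer factor across groups was never another layer factor. For each factor, the gene with the most similar profile over the 22 group means of log2 CPM was sought among all genes tested. Pearson's r was 0.91 for Bcl11b with Trio and Cux2 with Dennd4b, 0.90 for Foxp2 with Tgfa, and 0.89 for Cux1 with Bahcc1, Rorb with Prkca and Pou3f2 with Ascc3. It was 0.88 for Sox5 with Rab10os, 0.83 for Fezf2 with Ube2l3 and 0.82 for Tle4 with Rbm7. Each is the highest value over all other genes tested, and the group means share replicate numbers and depth, so these are descriptions with no test. Between the paralogs Cux1 and Cux2, r was 0.52 over the same means. Over all pairs of layer factors it ran from −0.60 (Fezf2 with Foxp2) to 0.81 (Rorb with Pou3f2). Sox5 had an r of 0.72 with Tle4 and 0.71 with Fezf2.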

How the data were processed

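RNA sequencing of polyadenylated RNA was done on 66 libraries with a stranded kit, per the labels' protocols. The authors deposited 1 table of raw read counts per gene, with 48716 rows. STAR, featureCounts and the mm10 build are named without versions or roles in the submitters' processing notes, and the annotation and strand setting are not given in the sources used here. Columns named Luc were taken as the nontargeting group, which is the only control hairpin group in the labels, and 6 columns that match no sample used here were left out. Rows without a symbol (18483, with 0.69% to 1.41% of counts) were dropped and 149 repeated rows summed, which left 30084 symbols. Of count values from 1 to 20, 29.5% were odd, against 49.1% of those of at least 1000, so mates of a pair may have been counted separately. Counts halved and rounded were tried.

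Counts were fitted with edgeR 4.0.16 in R 4.3.3 (filterByExpr, 16145 genes, TMM factors 0.874 to 1.06, robust quasi-likelihood F test), with 1 mean per group over all 66 libraries and Benjamini-Hochberg adjustment over genes within each comparison at a threshold of 0.05. The fit without the block was tried on simulated counts with planted log2 changes of 1 and no effect of the replicate number. That trial therefore says nothing of the blocked fit or of smaller changes. CPM uses TMM-scaled totals, and log2 CPM a prior count of 2. Depth ranged from 13759741 to 66558546 counts. PCR reads are not independent molecules, so errors rest on replicates. The numbers were taken to pair libraries where the deviations from the group means of every pair of the same number correlated over 0.1. This held in 6 of 9 knockdowns in males and 8 of 9 in females (not Kdm6b in either sex, nor Ash1l and Med13l in males), with r from −0.11 to 0.65. The pairing comes from the data, since the labels do not explain the numbers. Alternatives were DESeq2 1.42.0, no filter, halved counts, no virus as control, fits of each sex or of only the libraries compared, the replicate block, and leaving out libraries. The block combined with left-out libraries was chosen after seeing the data. With the block and 1 library left out, the gene filter, TMM factors and dispersion trend were kept from the fit of all libraries. Only the coefficients and the quasi-likelihood dispersion were estimated anew there. Without the block, each fit with 1 library left out was redone in full. The 9 factors, the gene lists and the rule for named genes (per knockdown the up to 3 other layer genes with the smallest adjusted p among those called, and per factor the gene most alike over group means) were chosen with earlier results of these data known. Marker lists for neurons, endothelial cells and the oligodendrocyte lineage were also measured. In nontargeting libraries their summed CPM were 6558 to 7294, 19.6 to 37.2 and 32.9 to 42.9.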

Additional observations from a re-analysis of the deposited data

How the results depend on the processing

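Without the replicate block, 1 of 81 pairs of factor and knockdown was called for the averaged sexes, and the fall of Bcl11b after Med13l shRNA was in every alternative count. The count was 2 with DESeq2 (Pou3f2 after Med13l shRNA, adjusted p = 0.0455), 2 against the no virus libraries (Cux1 after Ash1l shRNA added) and 3 in fits of only the libraries compared (Cux2 after Chd8 and Med13l shRNA, edgeR adjusted p 0.0421 and 0.0246). It ran from 1 to 3 with each library left out, the highest without Med13l female replicate 2, with Cux2 and Pou3f2 after Med13l shRNA (0.0365 and 0.00599). Cux2 after Setd5 shRNA passed without Setd5 female replicate 2 or male replicate 3 (0.0175 and 0.0326). In males the count of 0 became 4 with each sex fitted separately and 5 in fits of only the libraries compared, and stayed at 0 with each library left out. In females the count of 1 became 0 in both, and ran from 0 to 2. After Tbr1 shRNA it ran from 0 to 1. The counts for sex differences and for virus were 0 in all alternatives run. The cause of these shifts was not tested.

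With the replicate block the averaged count was 23, as the share of all genes called went from 6.99% to 15.5% (24 without both libraries that go against their labels), the male count 10 (11) beside 7.01% of all genes, the female count 9 (12) beside 7.8% and the Tbr1 count 3 (3). With each library also left out, the averaged count was 19 without nontargeting male replicate 1 or 2 or female replicate 3, 20 without nontargeting female replicate 1, and 22 to 24 otherwise. The male count was 6 without nontargeting male replicate 1 or 2 and 7, 8, 9, 10 or 11 otherwise. The female count was 4 without nontargeting female replicate 3, 6 without Med13l female replicate 1, and 5, 7, 8, 9 or 10 otherwise. The Tbr1 count was 2 or 3. Where the numbers do not pair in both sexes, 13 of 27 averaged pairs were called with the block, 8 lower and 5 higher, beside 41.5% of all genes for Med13l, 17.2% for Ash1l and 7.87% for Kdm6b shRNA. After Med13l shRNA these were Bcl11b, Cux2, Fezf2, Pou3f2, Rorb and Sox5, all lower (−0.37 to −0.66). After Ash1l shRNA Bcl11b, Cux1 and Tle4 were higher (0.27 to 0.30) and Cux2 and Foxp2 lower. After Kdm6b shRNA Sox5 and Tle4 were higher (0.26 and 0.28). No called value changed sign under any alternative. Per factor and comparison, 2669 values kept their side of the threshold, 400 passed only in an alternative and 6 were lost.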
